A study of Rattus norvegicus with 8 samples.

Results

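The genes examined here encode the receptor and the enzymes that make and break its ligands, and they were chosen by name: Cnr1 (the CB1 receptor), Gpr55 (a receptor for lysophosphatidylinositol that some cannabinoids also bind), Napepld (which releases N-acylethanolamines such as anandamide), Dagla and Daglb (the diacylglycerol lipases that make 2-arachidonoylglycerol), Mgll (monoacylglycerol lipase, the main enzyme that degrades 2-arachidonoylglycerol), Abhd6 and Abhd12 (further hydrolases of 2-arachidonoylglycerol), Faah (which degrades anandamide) and Naaa (a lysosomal hydrolase of N-acylethanolamines). Of these 10 symbols, 8 were attached to at least 1 polyadenylation site, out of 18003 symbols in all. Faah and Gpr55 had no site under their symbols, so nothing is reported for either gene. The 8 genes held 38 sites and 6461 reads, or 0.0312% of all reads.

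Endocannabinoids are lipid messengers that nerve cells make on demand from membrane phospholipids. They travel backwards across the synapse to the cannabinoid receptor CB1, which lowers transmitter release and is also the main brain target of tetrahydrocannabinol (THC), and they are then destroyed by hydrolases. In the hypothalamus this system is known for its part in appetite and energy balance.

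Hypothalamic RNA came from 4 adult male Long-Evans rats that breathed vapor from whole-plant cannabis (7.8% THC, 0.5% cannabidiol) for 10 min and from 4 adult male Long-Evans rats handled alike but given no plant material to inhale, here called air-treated controls. Rats of both groups were accustomed to the chambers beforehand and had eaten freely until food was withdrawn, and tissue was taken 1 hr after exposure. Each rat gave 1 library, numbered 1 to 4 in the controls and 1, 2, 3 and 5 in the cannabis-exposed rats. The libraries were made by whole transcriptome termini site sequencing (WTTS-Seq), a method that sequences transcripts from their poly(A) tails, so that each site is a place where transcripts end and a gene with alternative polyadenylation (APA) has several sites. As a read marks an end, the counts do not scale with transcript length.

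Values are normalized counts, that is, reads on a site divided by a factor that equalizes libraries of different depth. The libraries held from 1159811 to 3706778 reads on 98356 sites, and the weight of 1 read ranged over 0.664 to 1.99 normalized counts. A gene total is the sum over all sites of that symbol. All 8 totals averaged at least 10 normalized counts, whereas 26 of the 38 single sites averaged less. The tissue label was checked against marker genes. For hypothalamic neurons, 7 of 8 listed genes had a site. Their summed totals were 2575 to 4950 normalized counts in the controls and 6626 to 8709 in the cannabis-exposed rats. Most of this was Avp and Oxt, which averaged 1952 and 596 in the controls and 4934 and 1193 in the cannabis-exposed rats. Both were higher at P under 0.01, and no other member was called. Hcrt, Pmch, Agrp and Nkx2-1 had higher means in the cannabis-exposed rats, and Sim1 a lower one (98.1 in the controls, 76.7 in the cannabis-exposed rats). A list of 6 midbrain dopamine neuron genes, all with a site, summed to 771 to 1000 in the controls and 231 to 399 in the cannabis-exposed rats, and 4 of them (Slc6a3, Th, En1 and Ddc) were lower at P under 0.01. Of these, En1 averaged 31.9 in the controls and 3.81 in the cannabis-exposed rats. Pitx3 and Slc18a2 were not called, and both overlapped between groups. Pitx3 averaged 2.59 (0 to 5.12) in the controls and 0.332 (0 to 1.33) in the cannabis-exposed rats. The latter mean is below the worth of 1 read in every library. Slc18a2 averaged 98.7 (67.5 to 113) in the controls and 75.4 (49.7 to 90.6) in the cannabis-exposed rats. In the cortical and hippocampal excitatory list, Slc17a7, Neurod6, Tbr1 and Emx1 had no site.

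Across the 8 genes, Cnr1 was higher and Mgll was lower in every cannabis-exposed rat than in every control, and the other totals overlapped between groups. Over all gene totals, 1.98% had groups that did not overlap. The receptor transcript differed by 28.5% and the hydrolase transcript by −21.8%. Neither passed the threshold of P under 0.01 in limma, the linear model fitted over all genes, and none of the 8 did, against a background of 0.278% of all gene totals. The smallest P of the 8 was 0.0728 and the smallest adjusted P (Benjamini-Hochberg over all 18003 totals) was 0.999. At an unadjusted P under 0.05 the count was also 0 of 8 in each of limma, edgeR, DESeq2 and limma-voom, where 2.41%, 2.52%, 2.18% and 2.88% of all gene totals passed, so a count of 0 among 8 is near the background.

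**Figure D1:**
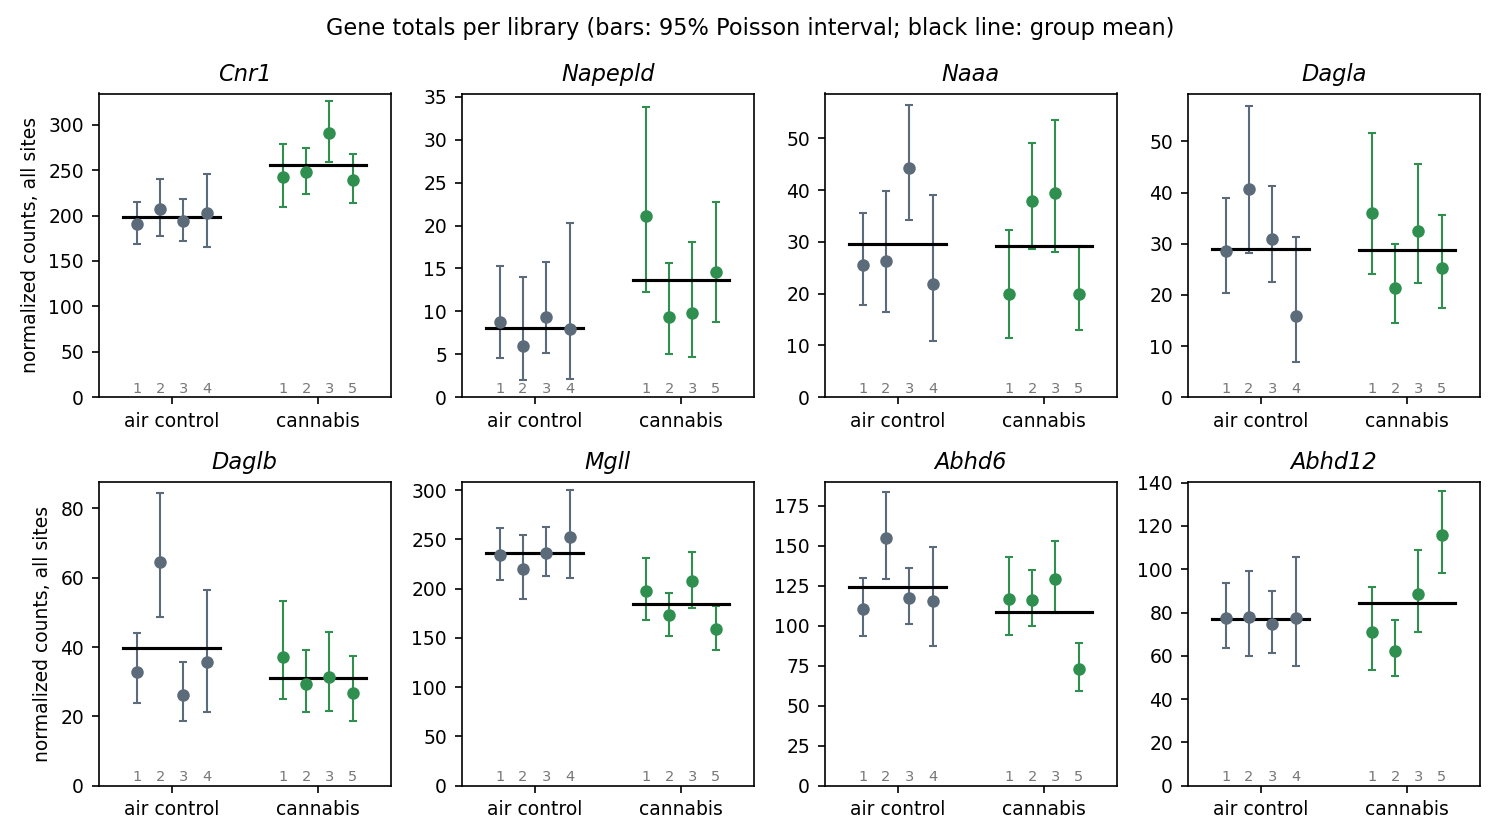
Gene totals in normalized counts (vertical axes, each starting at 0) for the 8 genes in each library, with air-treated controls in grey and cannabis-exposed rats in green and library numbers along the axis. Points are libraries, vertical bars are 95% Poisson intervals from the reads, and black lines are group means. In Cnr1 the cannabis-exposed rats lie at 239.6 to 291.3 and the controls at 190.8 to 207.1, and in Mgll the order is turned, with 159.0 to 207.6 against 220.3 to 252.2.

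Cnr1, the receptor, had 7 sites and 2001 reads. Its total was 190.8, 207.1, 194.0 and 202.6 normalized counts in controls 1 to 4. In cannabis-exposed rats 1, 2, 3 and 5 it was 242.2, 247.8, 291.3 and 239.6. The lowest cannabis-exposed rat thus lay above the highest control, and rat 3 stood above the other cannabis-exposed rats. The means were 198.6 ± 7.52 in the controls and 255.2 ± 24.3 in the cannabis-exposed rats (SD, n = 4 each).

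On the log2(normalized count + 1) scale the Cnr1 total was higher by 0.36 (SE 0.18, 95% confidence interval −0.04 to 0.75), and limma gave a P of 0.0728 and an adjusted P of 0.999. A two-sided exact permutation test over the 70 regroupings of the 8 libraries gave P = 0.0286 (n = 4 each), which is the smallest value it can give. Fully separated groups were found in 1.98% of all gene totals, and among the 3654 totals averaging at least 100 normalized counts in 1.48%, with every cannabis-exposed rat higher in 1.01%.

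Counting error alone would give an SD of about 15.2 among the Cnr1 controls and 15.3 among the cannabis-exposed rats, so the controls were closer to each other than their reads would set. The 95% Poisson interval of control 4, from 102 reads, ran from 165 to 246 and took in the values of cannabis-exposed rats 1 and 5. Such intervals cover counting error only, since the reads carried no molecular identifiers.

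Most of the Cnr1 reads came from 1 site. Site 1, the site with the most reads, held 81.2% of the gene's reads. In the Rnor_6.0 build it spans chr5:49333044-49333218 on the plus strand, and its class code is the one the study used for distal sites, which lie at transcript ends. Its normalized counts were 135.2, 179.6, 149.1 and 156.9 in controls 1 to 4. The cannabis-exposed rats 1, 2, 3 and 5 gave 186.3, 213.2, 248.0 and 204.3. Again the groups did not overlap, though control 2 and cannabis-exposed rat 1 were close.

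Site 1 averaged 155.2 ± 18.6 in the controls and 212.9 ± 25.9 in the cannabis-exposed rats (SD, n = 4 each). The log2 difference was 0.45 (SE 0.28, limma P = 0.124, adjusted P = 1.00 over all sites), and the exact permutation P was 0.0286. Over all 98356 sites 2.0% had groups that did not overlap. Sites 2, 3 and 4 were also higher on average, with log2 differences of 0.25, 0.11 and 0.58, and the log2 differences of sites 5, 6 and 7 were negative. The other 6 sites of Cnr1 together averaged 43.4 ± 11.7 in the controls and 42.3 ± 9.90 in the cannabis-exposed rats (exact permutation P = 0.83, n = 4 each).

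One minor site ran the other way. Cnr1 site 6, which lay outside the naming rule and was chosen after its values were seen, had 40 reads in all. Its normalized counts were 7.31, 2.39, 9.40 and 9.93 in controls 1 to 4 and 1.24, 3.99, 1.97 and 0 in cannabis-exposed rats 1, 2, 3 and 5. Control 2 fell among the cannabis-exposed rats, so the groups overlapped. The log2 difference was −1.65 (SE 0.62, limma P = 0.0144, adjusted P = 1.00, exact permutation P = 0.0571, n = 4 each). With 1 library left out, limma P ran from 0.00517 (without control 2) to 0.0640 (without cannabis-exposed rat 5, log2 difference −1.23). It was 0.00738 without cannabis-exposed rat 2, and 0.138 with the replicate numbers fitted as a block.

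Mgll, the monoacylglycerol lipase, had 7 sites and 1820 reads. In controls 1 to 4 its total was 233.9, 220.3, 236.3 and 252.2 normalized counts. The totals of cannabis-exposed rats 1, 2, 3 and 5 were 197.4, 172.7, 207.6 and 159.0. The highest cannabis-exposed rat, rat 3, lay below the lowest control. The means were 235.7 ± 13.1 and 184.2 ± 22.3 (SD, n = 4 each), and counting error alone would give SDs of 16.5 and 13.1.

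The Mgll total differed by −0.36 on the log2 scale (SE 0.19, 95% confidence interval −0.77 to 0.05, limma P = 0.0789, adjusted P = 0.999), with an exact permutation P of 0.0286. Among totals averaging at least 100, every cannabis-exposed rat was lower in 0.465%. With 1 library left out there are 35 regroupings, and the smallest exact permutation P possible is again 0.0286. With any 1 control left out, the exact permutation P for Mgll became 0.0571 while the log2 difference was −0.39 to −0.33. The Mgll groups stayed fully separated in each case, but another regrouping gave a difference at least as large as the observed one. With any 1 cannabis-exposed rat left out, the Mgll P was 0.0286, as it was for Cnr1 with any 1 library left out.

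Unlike Cnr1, no single Mgll site separated the groups. Site 1, with 77.7% of the reads, had 161.1 to 214.5 normalized counts in the controls and 126.2 to 181.3 in the cannabis-exposed rats, with means of 182.2 ± 23.9 and 150.8 ± 28.2 (SD, n = 4 each) and a log2 difference of −0.28 (limma P = 0.350, exact permutation P = 0.200). Site 2, with 13.4% of the reads, had 32.9, 33.5, 49.0 and 15.9 in controls 1 to 4 and 11.2, 36.5, 21.7 and 3.07 in cannabis-exposed rats 1, 2, 3 and 5. Its lowest value was that of cannabis-exposed rat 5, but rat 2 exceeded 3 of the 4 controls. The log2 difference of site 2 was −1.14 (SE 0.57, limma P = 0.0597, adjusted P = 1.00, exact permutation P = 0.229). It was −0.53 (limma P of 0.300) without cannabis-exposed rat 5 and −1.601 (limma P of 0.0114) without rat 2.

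**Figure D2:**
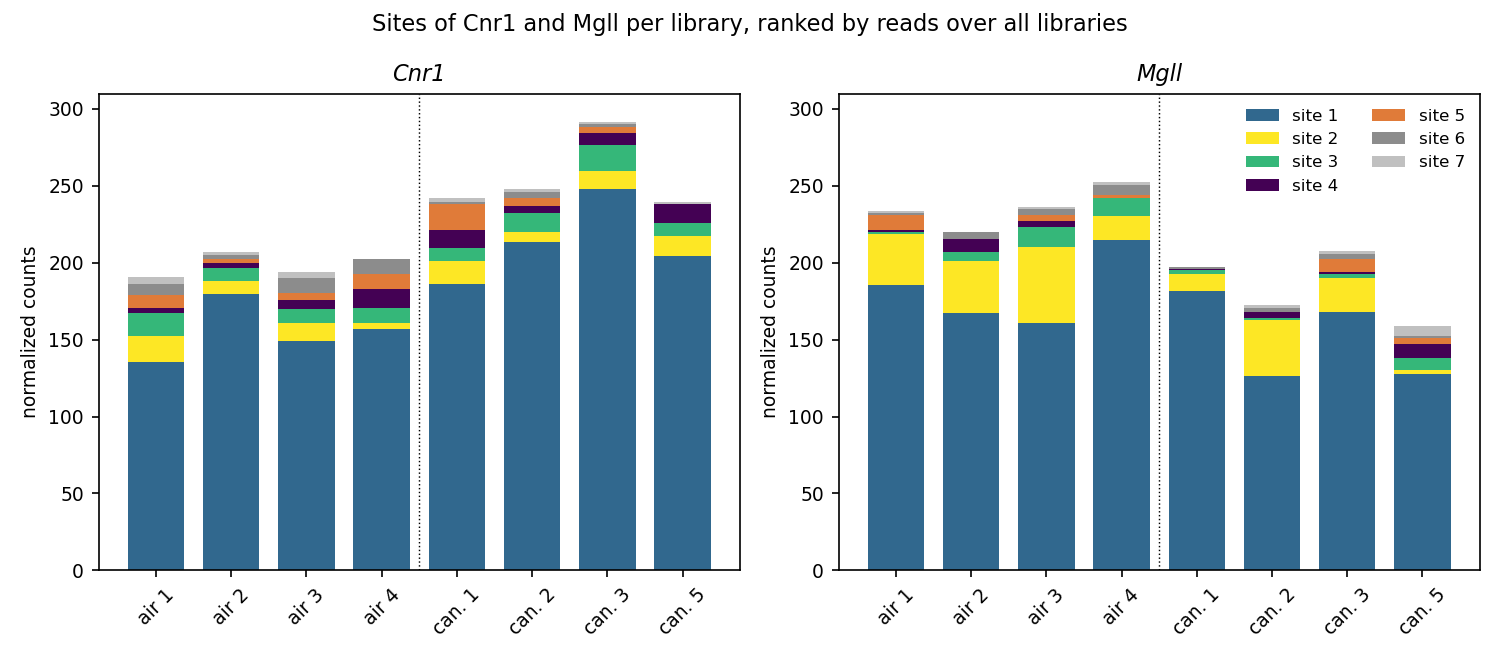
Normalized counts (vertical axis) at each site of Cnr1 and Mgll in the 8 libraries (horizontal axis, air-treated controls left of the dotted line), stacked so that a whole bar is the gene total. Site 1 makes up most of every bar, and it averages 155.2 and 212.9 for Cnr1 and 182.2 and 150.8 for Mgll in controls and cannabis-exposed rats.

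As the totals of Cnr1 and Mgll moved apart, the ratio of Cnr1 to Mgll was 0.803 to 0.940 in the controls and 1.23 to 1.51 in the cannabis-exposed rats. This ratio was formed after the totals were seen and was not tested. Pearson's r between the Cnr1 and Mgll totals on the log2 scale was −0.619 over the 8 libraries, which share the 2 groups.

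The makers of the ligands are described next. Napepld, the N-acylethanolamine-releasing phospholipase, was the scarcest of the 8 genes, with 95 reads over 3 sites. Its total was 8.77, 5.99, 9.40 and 7.94 normalized counts in controls 1 to 4 and 21.1, 9.30, 9.84 and 14.6 in cannabis-exposed rats 1, 2, 3 and 5. All but 1 of the cannabis-exposed rats exceeded every control. The log2 difference was 0.65 (SE 0.40, 95% confidence interval −0.20 to 1.501, limma P = 0.123, exact permutation P = 0.0571, n = 4 each). With 4 to 19 reads a library, counting error alone would give SDs of 2.99 in the controls and 3.65 in the cannabis-exposed rats, against SDs of 1.48 and 5.48 found.

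Sites 1, 2 and 3 of Napepld held 55.8%, 24.2% and 20% of its reads. Their log2 differences were 0.74, 0.13 and 0.65, and none had a limma P below 0.208.

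Dagla and Daglb, which make 2-arachidonoylglycerol, overlapped between groups. Dagla had 1 site, with 15.9 to 40.7 normalized counts in the controls and 21.3 to 36.0 in the cannabis-exposed rats. Its means were 29.0 ± 10.2 and 28.8 ± 6.69 (SD, n = 4 each), and the log2 difference of 0.03 had a 95% confidence interval of −0.70 to 0.76 (exact permutation P = 0.914). That interval takes in changes as large as those fitted for Cnr1 and Mgll, so a change of that size is not excluded for Dagla.

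Daglb had 4 sites and a total of 26.2 to 64.6 in the controls and 26.9 to 37.3 in the cannabis-exposed rats. Control 2 alone stood high, and the group means were 39.9 ± 17.0 and 31.2 ± 4.44 (SD, n = 4 each). The log2 difference was −0.27 (95% confidence interval −0.95 to 0.41, limma P = 0.403, exact permutation P = 0.457), and it was −0.0161 without control 2 and −0.44 without control 3. Daglb site 1 (63.3% of reads) differed by −0.38 and site 2 (23.9%) by 0.30, with limma P of 0.419 and 0.591. Dagla made up 30.8 to 54.1% of the combined Dagla and Daglb counts in the controls and 42.1 to 50.8% in the cannabis-exposed rats.

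Abhd6 and Abhd12, the other hydrolases of 2-arachidonoylglycerol, overlapped between groups. The Abhd6 total was 110.4, 154.4, 117.5 and 115.2 in controls 1 to 4 and 116.7, 116.2, 128.9 and 73.0 in cannabis-exposed rats 1, 2, 3 and 5. One library in each group stood apart, control 2 above and cannabis-exposed rat 5 below the rest. The Abhd6 log2 difference was −0.21 (95% confidence interval −0.73 to 0.30, limma P = 0.392, exact permutation P = 0.514).

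The Abhd12 total was 77.5, 77.8, 74.5 and 77.5 in controls 1 to 4, and in the cannabis-exposed rats it was 70.8, 62.4, 88.6 and 116.0. The control values were closer together (SD 1.54) than the SD of 9.40 that counting error alone would give, and the cannabis-exposed rats spread over both sides of them. The Abhd12 log2 difference was 0.10 (95% confidence interval −0.43 to 0.62, limma P = 0.701, exact permutation P = 0.714).

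At the sites of these genes, Abhd6 site 1 (68.7% of reads) differed by −0.22 and site 2 (14.2%) by 0.10 on the log2 scale. Abhd12 site 1 (62.1%) differed by 0.09. Abhd12 site 2, with 11.5% of the reads, averaged 6.48 ± 6.07 in the controls and 13.7 ± 8.69 in the cannabis-exposed rats (SD, n = 4 each). Its log2 difference was 1.13 (SE 0.68, limma P = 0.113, exact permutation P = 0.257). This difference was 0.55 without control 3 and 1.69 (limma P of 0.0205) without cannabis-exposed rat 2. Control 2, at 14.4, lay above cannabis-exposed rats 1 and 2, at 11.2 and 2.66.

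Summed over Mgll, Abhd6 and Abhd12, the hydrolases of 2-arachidonoylglycerol gave 421.8 to 452.5 normalized counts in the controls and 347.9 to 425.1 in the cannabis-exposed rats. Mgll made up 48.7 to 56.7% of this sum in the controls and 45.7 to 51.3% in the cannabis-exposed rats. These sums and shares were not tested.

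Naaa, the lysosomal N-acylethanolamine hydrolase, had 1 site. It gave 21.8 to 44.3 normalized counts in the controls and 19.9 to 39.4 in the cannabis-exposed rats, and the group means were 29.5 ± 10.1 and 29.3 ± 10.8 (SD, n = 4 each). The log2 difference was −0.03 (95% confidence interval −0.78 to 0.71, limma P = 0.926, exact permutation P = 0.943).

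**Figure D3:**
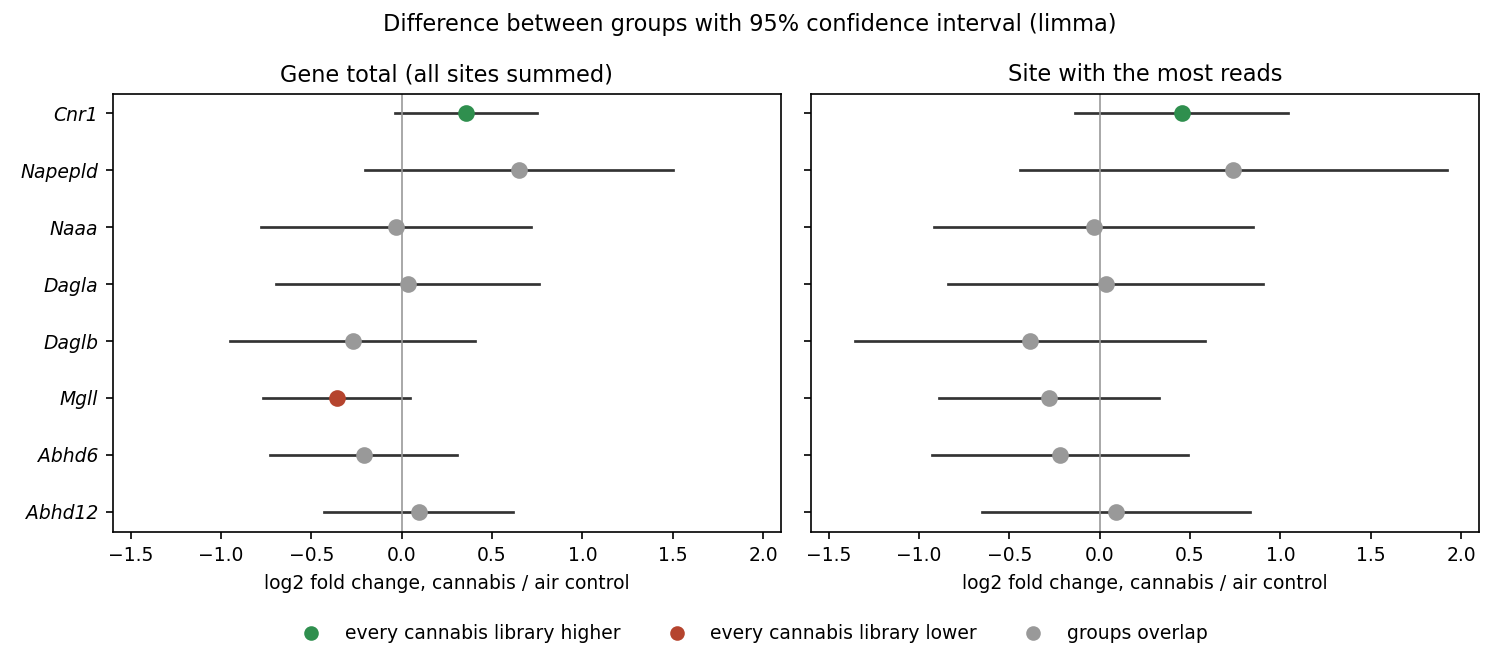
Log2 fold change of cannabis-exposed rats over air-treated controls (horizontal axis) for the gene total (left) and the site with the most reads (right) of the 8 genes, with the 95% confidence interval from limma as a line. The intervals of all 8 totals and all 8 leading sites take in 0, and the groups are fully separated in the Cnr1 total, the Mgll total and Cnr1 site 1 (coloured points).

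Over the 38 sites, 18 were higher and 20 lower in the cannabis-exposed rats, with a median log2 difference of −0.07 beside 0.01 over all sites. None had P under 0.01 in limma, where 0.381% of all sites did, and 1 (Cnr1 site 6) had P under 0.05, where 3.03% of all sites did. At that level edgeR called 2 of the 38 sites and DESeq2 and limma-voom called 1 each, beside 2.91%, 1.86% and 2.95% of all sites, and none of them called a member site at 0.01. These counts are near the background. Over the 8 totals the log2 difference was positive in 4 and negative in 4, with a median of 6.2e-05 beside 0.05 over all gene totals.

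The share of a gene's 3′ ends at its leading site asks about APA apart from the gene's total. The Cnr1 share at site 1 was 70.9, 86.7, 76.8 and 77.5% in controls 1 to 4. It was 76.9, 86.1, 85.1 and 85.3% in cannabis-exposed rats 1, 2, 3 and 5. Control 2 had the highest share of all, and the groups overlapped, with means of 78.0% ± 6.54 and 83.3% ± 4.30 (SD; exact permutation P = 0.343, n = 4 each).

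The Mgll share at site 1 was 68.2 to 85.0% in the controls and 73.1 to 91.8% in the cannabis-exposed rats (exact permutation P = 0.400, n = 4 each). For Abhd6, Abhd12, Daglb and Napepld the mean shares were 71.5%, 62.1%, 67.5% and 50.2% in the controls. In the cannabis-exposed rats they were 70.5%, 62.1%, 62.1% and 55.1%.

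The log2 ratio of the leading site to all other sites was fitted with limma for 7879 genes, 5 of them members. None of the 5 had P under 0.01, where 0.292% of all genes did, nor under 0.05, where 2.78% did, and the smallest P was 0.324, for Cnr1. Dagla and Naaa had 1 site and could show no such shift, and Napepld was too scarce for the fit.

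Genes around these enzymes were counted from lists of other makers of N-acylethanolamines, of phospholipase C and Gq (which supply diacylglycerol), of other hydrolases and oxygenases, of other receptors with the CB1 partner Cnrip1, and of enzymes that recycle diacylglycerol and arachidonate. Of 55 genes listed, 44 had a site. None of the 44 had P under 0.01 in limma, 21 were higher and 23 lower, and the median log2 difference was 0.00. One had P under 0.05, against 2.41% of all gene totals: Abhd2, a lipase that also cleaves 2-arachidonoylglycerol and was chosen after its value was seen, averaged 0.467 ± 0.581 normalized counts in the controls and 3.78 ± 2.21 in the cannabis-exposed rats (limma P of 0.0180, adjusted P = 0.999). The control mean is below the worth of 1 read in every library.

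Taken list by list, none had a called gene and the summed totals of every list overlapped between groups. Other makers of N-acylethanolamines (7 of 9 with a site) had a median log2 difference of −0.14, and phospholipase C with Gq (13 of 14) one of −0.01. The other hydrolases and oxygenases (7 of 12) had a median of 0.10, the other receptors and partner (4 of 7) of −0.21, and the recycling enzymes (13 of 13) of 0.01. Cnr2, Gpr18 and Gpr119 had no site. Cnrip1, a protein that binds the tail of CB1 and was named after its values were seen, was at 367.7 to 434.4 normalized counts in the controls and 427.1 to 473.0 in the cannabis-exposed rats.

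The 3 genes whose totals followed Cnr1 most closely over the 8 libraries, among 3653 other genes averaging at least 100 normalized counts, were Ldb2 (Pearson's r = 0.943), Mtmr3 (0.923) and Slc33a1 (0.919). With 8 points that fall into 2 groups, these values describe the libraries.

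In whole tissue, fewer cells of a type and less RNA per cell cannot be told apart. The 4 midbrain dopamine transcripts fell and the Avp and Oxt transcripts rose between the same groups as the Cnr1 and Mgll totals, with the values given above, and the part of these differences in the Cnr1 and Mgll results was not tested. The lists for neurons in general, GABA neurons, astrocytes, oligodendrocytes, microglia, endothelium, ependyma, choroid plexus, pituitary, striatum, thalamus, cortex with hippocampus and the glutamate neuron gene Slc17a6 overlapped between groups and had no gene at P under 0.01. The oligodendrocyte list (6 of 6 with a site) summed to 40021 to 54214 in the controls and 33168 to 49693 in the cannabis-exposed rats, and the astrocyte list (6 of 6) to 2836 to 4204 and 3208 to 5162. Neuron genes (5 of 5) summed to 2161 to 2447 and 2184 to 2571.

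Across 21 other settings, which covered pseudocounts, filters, scalings, count models and each library left out in turn, the Cnr1 total stayed higher by 0.29 to 0.39 on the log2 scale. The Mgll total stayed lower, by −0.42 to −0.26, over the same settings. P in these fits ran from 0.0558 to 0.172 for Cnr1 and from 0.0534 to 0.359 for Mgll. As the groups were fully separated in both totals, leaving out a library or changing the pseudocount could not change the sign.

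**Figure D4:**
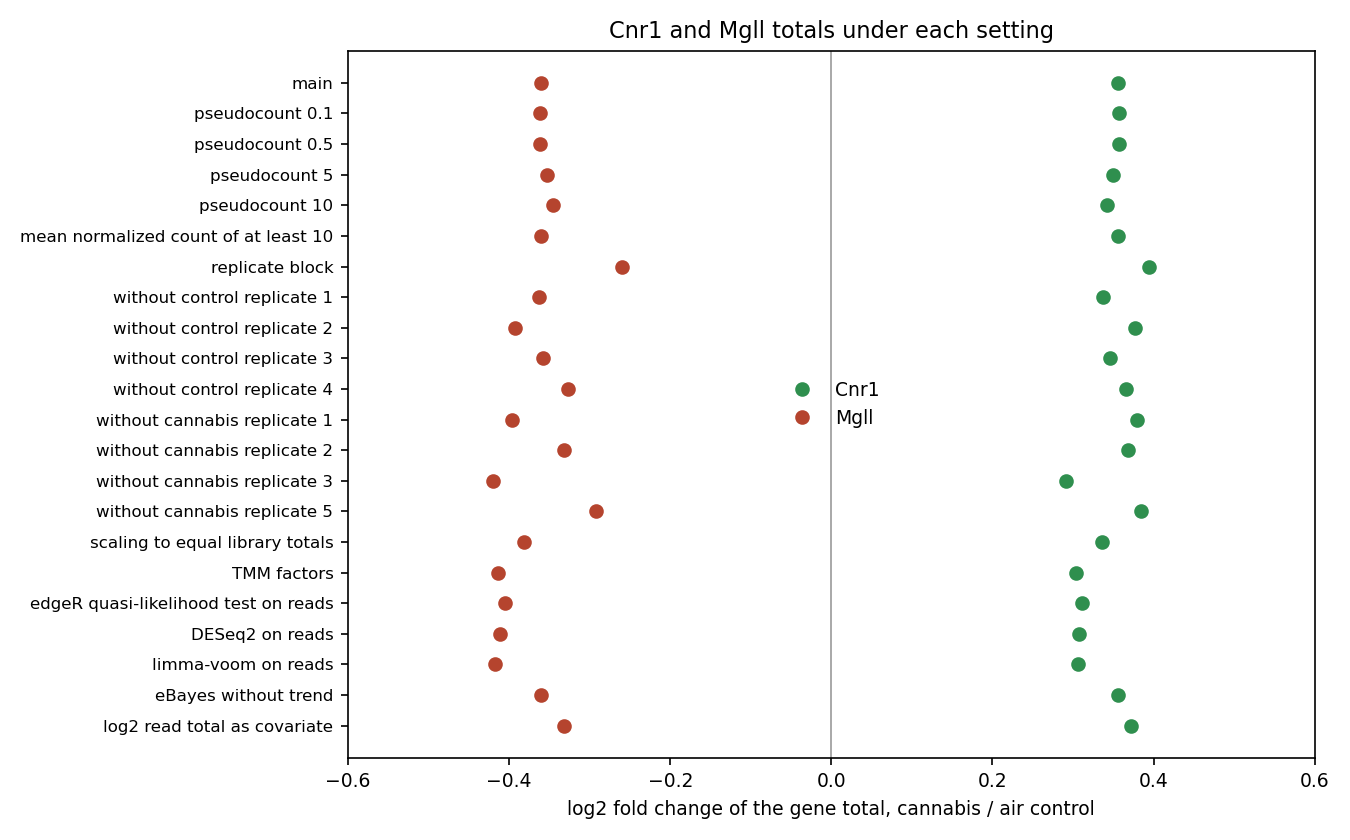
Log2 fold change of the Cnr1 (green) and Mgll (red) totals, cannabis-exposed rats over air-treated controls (horizontal axis), in the reported fit and under 21 alternative settings (vertical axis). Every Cnr1 point lies right of 0, between 0.29 and 0.39, and every Mgll point left of it, between −0.42 and −0.26.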

How the data were processed

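WTTS-Seq libraries of hypothalamic RNA from 4 cannabis-exposed and 4 air-treated rats were grouped by their labels. The authors aligned reads with Rnor_6.0, merged nearby read ends to define APA sites, dropped sites below 16 reads, assigned genes with Cuffcompare and scaled the reads by DESeq2 size factors. The normalized counts they deposited per site (a depth-scaled signal, 1 file per library) were taken as they stand. Their later filter on mapping quality was not applied. Dividing by the smallest step gave whole reads for 100% of values within 0.001. On these reads edgeR's quasi-likelihood test called 517 sites and 54 gene totals at P under 0.01, and DESeq2 called 310 and 76, beside 375 and 50 in limma.

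Sites and gene totals were fitted with lmFit and eBayes (trend) on log2(normalized count + 1) without covariates, using limma 3.58.1 under R 4.3.3, a scale that understates changes of scarce sites. Leading site over other sites was fitted for genes with at least 2 sites and a mean of at least 20, with a pseudocount of 1. The thresholds of P under 0.01 and adjusted P under 0.1 follow the study. At adjusted P under 0.1, limma called 1 site, 1 gene total and 0 usage ratios (219 at an unadjusted P under 0.05). Single values had an exact two-sided permutation test, not adjusted over the members. Each library is 1 rat. The fits were tested on simulated data.

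Named are all members with a site, their leading site and sites with at least 10% of a gene's reads or P under 0.01, other pathway genes with P under 0.01, and the 3 genes most like Cnr1. Members and lists were chosen with earlier results of these data known. Sites carry no coordinates in the files, and the position of Cnr1 site 1 came from the study's table, matched by symbol and all 8 values. In the GRCr8 annotation Cnr1, Abhd12 and Mgll overlap other gene models, so reads there may be shared. Alternatives used edgeR 4.0.16 and DESeq2 1.42.0, and the other steps used scipy 1.17.1, pandas 2.3.3, numpy 2.4.6 and matplotlib 3.10.9 under Python 3.11.15.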

Additional observations from a re-analysis of the deposited data

Results flagged for a closer look

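Among 52 groups of 4 values (totals, named sites and leading-site shares of the members), 5 held 1 library far from the other 3 by Dixon's ratio, and chance flags about 1 in 20 groups. The Cnr1 total of cannabis-exposed rat 3 was 291.3 normalized counts, where the others of its group had 239.6 to 247.8. The Cnr1 leading-site share of cannabis-exposed rat 1 was 76.9%, where the others had 85.1 to 86.1%. The Abhd6 total of control 2 was 154.4, where the other controls had 110.4 to 117.5. The Abhd12 total of control 3 was 74.5, where the other controls had 77.5 to 77.8, a gap smaller than the counting error. Napepld site 1 in cannabis-exposed rat 1 was at 16.1, where the others had 4.92 to 5.38.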

How the results depend on the processing

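Over 28 member values and 524 alternatives, 478 kept their direction and side of the threshold, 4 lost the call, 2 gained one and 40 changed sign, and none of the Cnr1 (86) or Mgll (87) alternatives changed sign. These counts include exact permutation settings that repeat the log2 differences of the totals. For the fully separated Cnr1 and Mgll totals and Cnr1 site 1, leaving out a library or changing the pseudocount could not change the sign. Cnr1 site 6 passed P under 0.01 without control 2 (−2.03) and without cannabis-exposed rat 2 (−2.0), so the members' site count was 0 to 1 with a library left out, and it was 1 at a threshold of 0.05. The 4 lost calls were the Mgll exact permutation tests without 1 control, over 35 regroupings and with the groups still fully separated. Of the 8 totals and 6 leading-site shares, 2 had an exact permutation P under 0.05, and 1 to 3 with a library left out (1 without any 1 of the controls). Over all gene totals, 1.98% had fully separated groups.

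Sites at P under 0.01 numbered 375, against 138 with a pseudocount of 0.1, 44 with a mean of at least 10 (fewer sites tested), 229 with the replicate block and 2981 at a threshold of 0.05. With a library left out they numbered 227 (without cannabis-exposed rat 5) to 617 (without control 3), with 231 without control 1 and 594 without cannabis-exposed rat 1. Gene totals numbered 50, against 29 with a mean of at least 10, 24 with the replicate block, 76 in DESeq2, 98 without trend and 433 at 0.05. With a library left out they numbered 30 (without control 1) to 90 (without cannabis-exposed rat 1), with 84 without control 3 and 31 without cannabis-exposed rat 5. The split of higher to lower totals was 18 to 32 in limma, 12 to 39 with TMM factors, 12 to 42 in edgeR, 12 to 64 in DESeq2, 12 to 47 in voom, 51 to 47 without trend and 236 to 197 at 0.05. With a library left out, this split ran from 9 to 66 (without cannabis-exposed rat 2) to 49 to 35 (without control 3), with 15 to 15 without control 1 and 31 to 30 without cannabis-exposed rat 3. Usage calls numbered 23, against 7 with a mean of at least 100, 42 without a filter and 219 at 0.05, and 13 (without control 1) to 47 (without control 3) with a library left out, with 36 without cannabis-exposed rat 2. The causes were not tested.

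Of the values that changed sign, the Dagla total (0.03) was −0.17 with the replicate block, −0.0167 with TMM factors, −0.0875 in edgeR, −0.0931 in DESeq2, −0.145 in voom, −0.00226 with the read total as covariate, and −0.22 to 0.22 with a library left out. Abhd6 site 2 (0.10) was −0.0257 with a pseudocount of 10, −0.23 with the replicate block, −0.20 in edgeR, −0.19 in DESeq2, −0.0918 in voom, −0.22 with the covariate, and −0.60 to 0.47 with a library left out. With the replicate block, Abhd12 site 1 was −0.0314, Abhd6 site 1 0.0382, Daglb site 2 −0.191, Napepld site 2 −0.245, the Abhd12 total −0.0653, and the usage of Daglb 0.38 and of Abhd6 0.35. With a library left out, Abhd12 site 1 ran from −0.0318 to 0.174, Daglb site 2 from −0.13 to 0.70, Napepld site 2 from −0.21 to 0.34, the Abhd12 total from −0.0693 to 0.225, the Naaa total from −0.20 to 0.17, and the usage of Daglb from −0.78 to 0.0227, of Abhd6 from −0.45 to 0.34 and of Abhd12 from −0.22 to 0.13. Other differences that a left-out library moved by over 1.5 times without a change of sign were the Abhd6 total (−0.30 to −0.0324), Daglb site 1 (−0.71 to −0.14), Abhd6 site 1 (−0.33 to −0.0430), Napepld site 1 (0.36 to 0.92), the Napepld total (0.43 to 0.80) and the usage of Cnr1 (0.28 to 0.75) and of Mgll (0.0396 to 0.70). None of these values had P under 0.01 in any fit, and the cause was not tested. Without cannabis-exposed rat 2, every remaining cannabis-exposed rat exceeded every control in the Napepld total.

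The block used the 3 replicate numbers that both groups share. Deviations of same-numbered libraries correlated at −0.158 to 0.0427 (mean −0.0518, 3 pairs). Libraries with different numbers correlated at −0.201 to 0.289 (mean 0.0140, 13 pairs). With 3 pairs inside that spread, the comparison cannot tell whether the numbers pair the rats. The Cnr1 total was 0.39 (limma P of 0.172) and the Mgll total −0.26 (limma P of 0.359) with the block. The median over all sites was 34 reads in the 8 libraries together, which limits single sites more than totals.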
